A study of Rattus norvegicus with 22 samples.

Results

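The Zfp genes are the rat genes whose symbol is Zfp followed by a number, short for zinc finger protein. They were taken from the arrays by name alone: every probe that was not a control and whose accession mapped to such a symbol was a candidate, and each gene was represented by whichever of its probes was brightest on average across the 22 arrays. This gave 159 genes, all annotated as protein coding, of 26903 genes or unnamed targets on the array, of which 15154 had a RefSeq symbol. The 159 genes had 193 probes between them, and 33 genes had more than 1.

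Male rats were dosed by gavage with cyclophosphamide, which alkylates DNA and is given against tumours, in doses of 6 mg/kg on 6 days of each week during 4 weeks, or with saline on the same schedule. Germ cells of a testis were sorted by how fast they sink under gravity into pachytene spermatocytes, cells in the prophase of meiosis, and round spermatids, the haploid cells that follow meiosis. Total RNA was read on 22 one-colour Agilent arrays in 4 groups: round spermatids after cyclophosphamide (n = 6), round spermatids after saline (n = 6), pachytene spermatocytes after cyclophosphamide (n = 5) and pachytene spermatocytes after saline (n = 5). Among the pachytene arrays after cyclophosphamide, 2 carry rat number 16 with different further numbers, and the labels do not say whether they are 1 animal. They were counted as 2 samples. The labels give neither strain nor age. They do not say whether equal rat numbers in both cell types of a treatment name the same animal, so the p-values measure the spread between these arrays. Equal numbers in treated and saline groups belong to different rats.

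Most proteins of this kind bind DNA through repeated fingers that each hold a zinc ion. A large share also carry a KRAB domain, which brings the corepressor Trim28 and heterochromatin to the bound site, often a transposable element, and others are activators, chromatin adaptors or, like the Zfp36 proteins, binders of mRNA. In the testis, spermatocytes and round spermatids are both highly active in transcription, and a few of these genes were first described in mouse from one of these cell types.

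A level here is the log2 of the processed signal of a probe minus the log2 of its array's 75th percentile, so that 0 is the 75th percentile and each step of 1 is a doubling. Levels of different probes are not comparable, and only levels of the same gene are set against each other. The 75th percentile lay between 1069 and 2423 intensity units, 65.3% to 76.4% of probes were well above background, no spot was saturated, and arrays of the same group correlated at 0.971 to 0.9916. The arrays sat on 4 slides: slides 1 and 2, scanned together, held 3 round spermatid and 1 pachytene array of each treatment, and slides 3 and 4, from the other scan, held pachytene arrays only.

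The cell type labels were set against marker genes. All 14 round spermatid markers were higher in round spermatids of saline rats than in pachytene spermatocytes of saline rats. The levels of a list were also added on the linear scale for each array, where the brightest probes weigh most. For these 14 the log2 of that sum was 9.30 to 9.97 in round spermatids and 7.44 to 8.75 in pachytene spermatocytes. Of 13 pachytene markers, 11 were lower in round spermatids and 2 were higher. Markers of other testis cells also differed between the fractions. All 9 macrophage and leukocyte markers tested were higher in round spermatids of saline rats. Over the 10 on the array, the log2 of the sum was 2.09 to 3.69 there and -0.02 to 0.52 in pachytene spermatocytes. Of 10 Sertoli cell markers, 7 were lower and 1 was higher in round spermatids. The log2 of their sum was 1.43 to 2.91 there and 4.57 to 5.15 in pachytene spermatocytes. All 7 Leydig cell markers tested were lower in round spermatids, 5 of 6 smooth muscle markers were higher, and of 7 spermatogonial markers 4 were higher and 1 was lower. In RNA from a cell fraction, fewer cells of a type and less RNA per cell cannot be told apart, and the part of these other cells in the results below was not tested.

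Most Zfp genes were detected in both cell types. Of the 159 genes, 120 were well above background on all 22 arrays. Taken by group, 128 were well above background on every array of round spermatids after cyclophosphamide, 131 on every array of round spermatids after saline, 134 on every array of pachytene spermatocytes after cyclophosphamide and 138 on every array of pachytene spermatocytes after saline. On no array were Zfp9, Zfp483, Zfp563, Zfp667 and Zfp709l1 well above background. A gene entered a comparison when, in 1 or more of the groups compared, no more than 1 array failed to reach well above background for it, so genes that were dim in both groups were not tested.

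Round spermatids of saline rats were first set against pachytene spermatocytes of the same treatment, which compares the Zfp genes between the cell fractions without the drug. More of them were lower in the haploid cells than higher. Of 146 Zfp genes tested with limma at a Benjamini-Hochberg adjusted p of 0.05, 75 were lower in round spermatids (51.4%), against 37.0% of all 19422 genes tested. A further 46 were higher (31.5%), against 38.3% of all genes tested. With a change over 2-fold as well, 44 were lower (30.1%, against 20.7% of all genes) and 32 were higher (21.9%, against 25.3%). The median log2 difference of the Zfp genes was -0.44, with a range from -4.01 to 2.66, and the median of all tested genes was 0.01. The 6 round spermatid arrays lay wholly below the 5 pachytene arrays for 52 Zfp genes (28.4% of all genes did so) and wholly above them for 36 (28.7% of all genes did so). Slides 1 and 2 each held 3 round spermatid arrays and 1 pachytene array of saline rats, so within a slide the lone pachytene array is assumed to vary like the others. Within slide 1, 50 Zfp genes were lower and 39 higher, against 27.2% and 28.6% of all genes. Within slide 2, 55 were lower and 37 higher, against 28.7% and 31.5% of all genes.

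The comparison was repeated on the arrays of cyclophosphamide rats, which share no array with the saline rats. Both comparisons took the spread between arrays from all 22 arrays, so their p-values are not independent. There 80 of 145 Zfp genes tested were lower in round spermatids (55.2%, against 40.4% of all genes) and 47 were higher (32.4%, against 38.8%), with a median log2 difference of -0.58, against -0.02 for all genes. Of the 143 Zfp genes tested in both treatments, 73 were lower in both, 45 were higher in both, and no gene passed in opposite directions. Only 8 passed in 1 treatment and not in the other: Zfp14, Zfp157, Zfp445, Zfp532, Zfp655, Zfp786 and Zfp865 in cyclophosphamide rats and Zfp39 in saline rats. Whether these 8 differ between treatments is read from the interaction further on, in which none of them passed. Over the 143 genes, as a description, the differences in the 2 treatments correlated at r = 0.992 and had the same sign for 137.

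**Figure D1:**
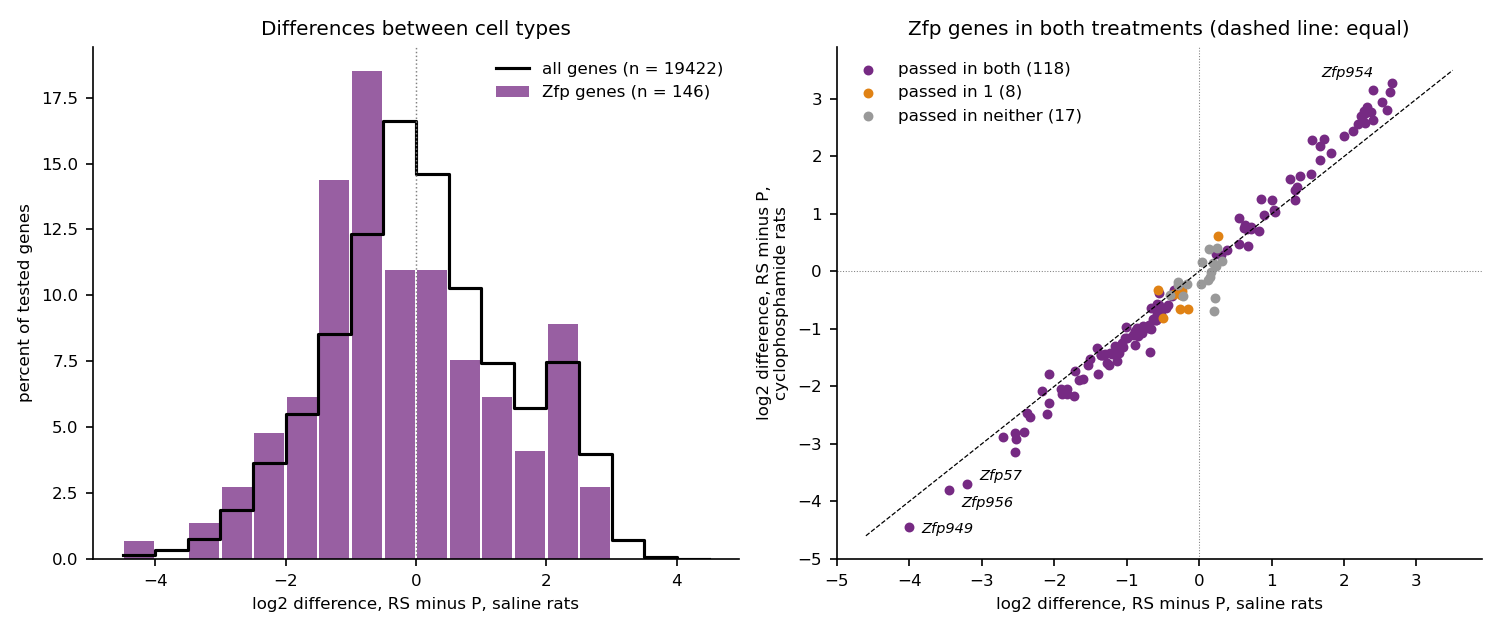
Left, percent of tested genes (y) in bins of the log2 difference between round spermatids (RS) and pachytene spermatocytes (P) of saline rats (x), with Zfp genes as bars (n = 146) and all tested genes as a line (n = 19422). Right, the log2 difference in saline rats (x) against that in cyclophosphamide rats (y) for each Zfp gene tested in both, coloured by whether it passed. The bars stand above the line over the bins between -3 and -0.5, and 137 of 143 genes have the same sign in both treatments.

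Among the 10 genes with the widest rise in round spermatids were Zfp954, Zfp475, Zfp352, Zfp385d, Zfp385b, Zfp458, Zfp474, Zfp37, Zfp867 and Zfp330, with log2 differences of 2.29 to 2.66 in saline rats. Zfp37 was described from mouse spermatids, Zfp474 is a testis gene in mouse, and Zfp352 is known from the early mouse embryo. The highest, Zfp954, had levels between -2.73 and -2.28 (median -2.65) in round spermatids of saline rats, against -5.56, -4.35, -5.49, -5.61 and -5.32 in pachytene spermatocytes of saline rats. All 6 round spermatid arrays were higher than all 5 pachytene arrays, by 2.66 ± 0.22 (SE; 6.31-fold; limma adjusted p = 3.32e-10), and 4 of the 5 pachytene arrays had Zfp954 well above background. In cyclophosphamide rats the same gene was 9.67-fold higher in round spermatids.

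Zfp37 had levels between 3.74 and 4.34 (median 4.08) in round spermatids of saline rats, against 1.91, 2.13, 1.83, 1.18 and 1.52 in pachytene spermatocytes of saline rats. The groups did not overlap, and the log2 difference was 2.32 ± 0.19 ( limma adjusted p = 2.26e-10). In cyclophosphamide rats it was 7.26-fold, with levels between 3.85 and 4.70 (median 4.08) in round spermatids and of 1.02, 1.76, 1.49, 0.77 and 1.5 in pachytene spermatocytes.

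Zfp474 and Zfp475, which lie next to each other on chromosome 18 among protein coding genes, rose by nearly the same amount. Zfp474 had levels between 2.85 and 3.44 (median 3.19) in round spermatids of saline rats, against 1.12, 1.21, 0.75, 0.26 and 0.70 in pachytene spermatocytes of saline rats, a difference of 5.18-fold (limma adjusted p = 2.54e-12). Zfp475 had levels between 5.15 and 5.72 (median 5.40) in round spermatids of saline rats, against 3.54, 3.29, 2.77, 1.94 and 2.52 in pachytene spermatocytes of saline rats, a difference of 6.19-fold (limma adjusted p = 8.22e-10). For both genes every round spermatid array was above every pachytene array.

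The Zfp385 proteins bind RNA, and Zfp385a is known as a partner of p53. All 3 members on the array were higher in round spermatids of saline rats: Zfp385d by 5.79-fold, Zfp385b by 5.29-fold and Zfp385a by 0.62 ± 0.12 on the log2 scale (limma adjusted p = 8.70e-05). Zfp330, a nucleolar protein, was 4.89-fold higher, with levels between 2.83 and 3.30 (median 3.19) in round spermatids of saline rats, against 0.87, 1.44, 0.91, 0.19 and 0.81 in pachytene spermatocytes of saline rats.

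The 10 genes with the widest fall in round spermatids were Zfp949, Zfp956, Zfp57, Zfp422, Zfp472, Zfp426, Zfp644, Zfp260, Zfp382 and Zfp367, with log2 differences of -4.01 to -2.33 in saline rats. Zfp949 had levels between -8.11 and -6.12 (median -6.93) in round spermatids of saline rats, where 1 of 6 arrays had it well above background, against -3.10, -3.14, -3.18, -2.97 and -3.19 in pachytene spermatocytes of saline rats, where all 5 did. The log2 difference was -4.01 ± 0.34 (limma adjusted p = 3.76e-10), and its size is uncertain because 5 round spermatid arrays were not well above background. With normexp background correction it was -1.70. In cyclophosphamide rats no round spermatid array had Zfp949 well above background. Against the lowest signal well above background, it was then at least 9.55-fold lower in round spermatids than in pachytene spermatocytes of these rats. The limma adjusted p of 4.54e-11 belongs to the fit of the measured values, not to this bound.

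Zfp956 had levels between -5.63 and -4.83 (median -5.34) in round spermatids of saline rats, against -1.69, -2.12, -2.05, -1.36 and -1.79 in pachytene spermatocytes of saline rats. It was 10.9-fold lower in round spermatids (limma adjusted p = 8.37e-13) and 14.0-fold lower in those of cyclophosphamide rats, with no overlap in either treatment.

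Zfp57 and Zfp445 are KRAB proteins that keep methylation marks at imprinted genes in mouse embryos. Zfp57 had levels between -5.30 and -4.19 (median -4.46) in round spermatids of saline rats, against -1.23, -2.52, -1.63, -0.04 and -1.55 in pachytene spermatocytes of saline rats, a difference of 9.28-fold (log2 -3.21 ± 0.30, limma adjusted p = 2.05e-09). Among saline pachytene arrays it varied widely, with an SD of 0.90 on the log2 scale, against 0.09 to 0.42 for the other 9 genes of the same list. Zfp445 did not pass in saline rats (log2 difference -0.25 ± 0.13, limma adjusted p = 0.0776) and passed in cyclophosphamide rats (-0.41 ± 0.13, limma adjusted p = 0.00542), and its groups overlapped in both.

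Zfp644, a partner of the histone methyltransferases G9a and GLP, had levels between -0.59 and 0.14 (median -0.21) in round spermatids of saline rats, against 2.40, 1.70, 2.11, 2.77 and 2.40 in pachytene spermatocytes of saline rats. It was 5.78-fold lower in round spermatids (limma adjusted p = 1.64e-11), and its other probe was also lower, with a log2 difference of -1.34 ± 0.15. Zfp422, known as Krox-26, was 6.56-fold lower. Zfp260, a partner of Gata4 in heart, was 5.35-fold lower, Zfp382, a KRAB repressor, 5.18-fold lower and Zfp367, an activator of globin genes in red cell precursors, 5.03-fold lower.

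**Figure D2:**
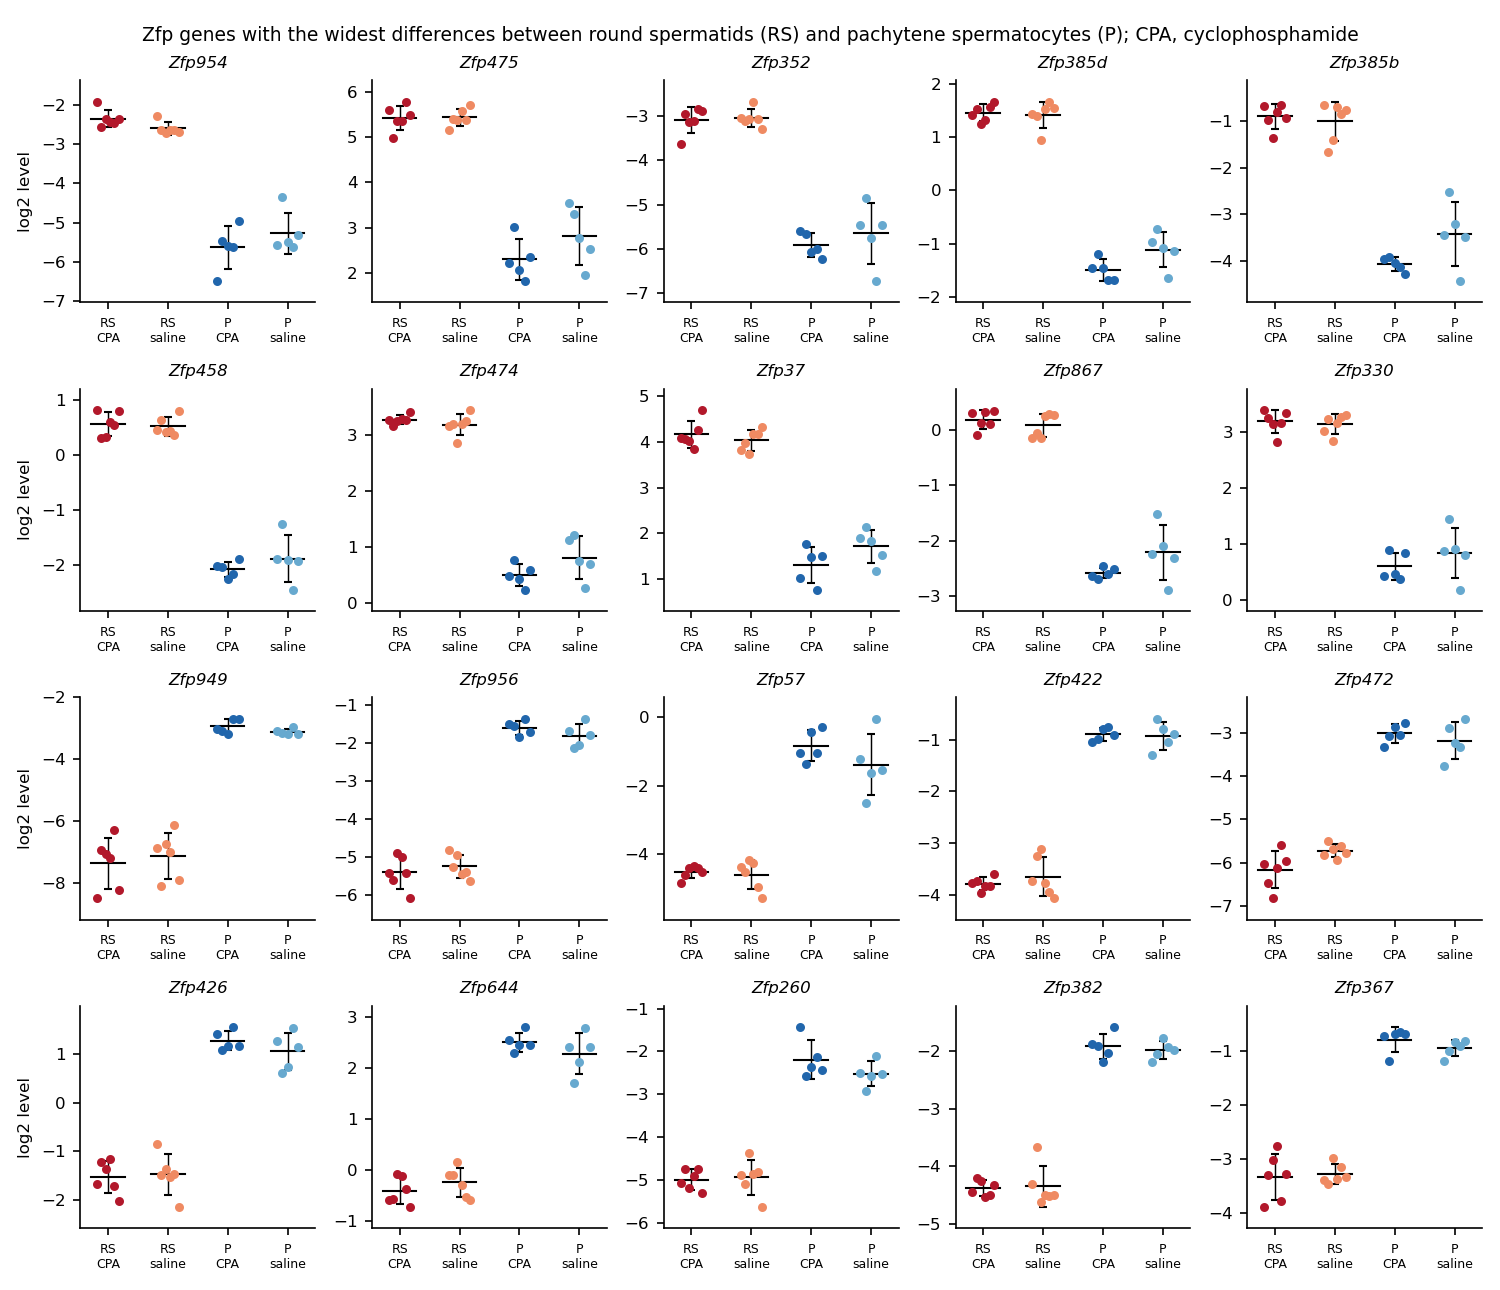
Log2 level (y; 0 is the array's 75th percentile) of 20 Zfp genes on every array, by group (x): round spermatids (RS) and pachytene spermatocytes (P) after cyclophosphamide (CPA) or saline. Points are arrays, horizontal lines are means and bars are SD; each panel has its own axis. In the upper 10 panels every round spermatid array lies above every pachytene array of the same treatment, and in the lower 10 panels every one lies under every pachytene array.

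Genes with a described role were then read from a list of roles. Zfp36, or tristetraprolin, Zfp36l1 and Zfp36l2 bind AU-rich mRNA ends and recruit the Ccr4-Not deadenylase. Zfp36 was well above background on 2 of 6 round spermatid arrays after cyclophosphamide, 3 of 6 after saline and no pachytene array, and was not tested. Zfp36l1 was higher in round spermatids of saline rats, with levels between -2.07 and -1.72 (median -1.82) there, against -3.47, -3.44, -3.59, -3.65 and -3.42 in pachytene spermatocytes of saline rats. The difference was 3.18-fold (limma adjusted p = 2.95e-12), and the groups did not overlap. Zfp36l2 was 1.63-fold higher (limma adjusted p = 0.00566), with overlapping groups.

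The decay factors that these proteins work with moved mostly the other way. Tested were 10 genes of a list that joins deadenylation and decapping genes with Elavl1. Of these, 8 were lower in round spermatids of saline rats (background 37.0%), Elavl1 among them, and 1 was higher (background 38.3%). Cnot8, a deadenylase of the Ccr4-Not complex, was 5.85-fold lower, and Elavl1, which stabilises AU-rich mRNAs and shares the list with the decay factors, was 4.40-fold lower. Pan3, of the Pan2-Pan3 deadenylase, was 2.57-fold higher. The median log2 difference of this list was -1.0. Macrophage markers, in a lineage where Zfp36 proteins are also active, were higher in round spermatids as given above, and their part in these values was not tested.

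Several activators and division factors were modestly lower in round spermatids. Zfp143, an activator at many promoters, was 1.84-fold lower (limma adjusted p = 2.24e-07), with levels between -2.63 and -2.12 (median -2.34) in round spermatids of saline rats, against -1.48, -1.39, -1.31, -1.46 and -1.58 in pachytene spermatocytes of saline rats, and with no overlap. Zfp35, described from mouse pachytene spermatocytes, was 2.10-fold lower (limma adjusted p = 4.96e-05). Zfp131, a BTB protein, was 1.58-fold lower, Zfp148, which binds GC boxes, lower by a log2 difference of -0.58 ± 0.15, and Zfp207, the spindle protein BuGZ that binds Bub3, 1.30-fold lower. Zfp384 was 1.28-fold lower. Zfp207 and Zfp384 no longer passed with slide as a block.

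In the other direction, Zfp521, a partner of Ebf factors, was 4.87-fold higher in round spermatids (limma adjusted p = 2.27e-09), with levels between 0.08 and 0.71 (median 0.13) in round spermatids of saline rats, against -1.71, -1.39, -2.09, -2.93 and -2.13 in pachytene spermatocytes of saline rats. Zfp91, a ubiquitin ligase, was 1.76-fold higher. Zfp592, a partner of Zmynd8, and the corepressor Zfp703 did not pass, with log2 differences of 0.04 ± 0.20 and 0.14 ± 0.36, and Zfp503, a relative of Zfp703, was too dim to test. The other 2 probes of Zfp703, well above background on 12 and 9 of the 22 arrays, were lower in round spermatids, at -0.94 ± 0.21 and -1.16 ± 0.28 (limma adjusted p of 0.000386 and 0.00067). Of the Zfp genes tied to translation, Zfp593 and Zfp622, which act in maturation of the large ribosomal subunit, were lower in round spermatids, with log2 differences of -1.66 ± 0.23 and -0.64 ± 0.10. So was Zfp598, a ubiquitin ligase of collided ribosomes, at -0.46 ± 0.10. These 3 were chosen after their values were seen. The only Zfp gene on chromosome X, Zfp275, did not pass (log2 difference 0.24 ± 0.19).

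The partners of KRAB proteins were on the array in part, with 7 of 15 listed genes, of which 6 were tested. In round spermatids of saline rats 4 of the 6 were higher (background 38.3%) and 1 was lower (background 37.0%). Trim28 itself did not pass, with a log2 difference of -0.06 ± 0.13. The HP1 protein Cbx5 was 1.89-fold higher, Smarcad1, a chromatin remodeller, 4.07-fold higher and Pphln1, of the HUSH complex, 2.79-fold higher, while Mphosph8, another HUSH subunit, was 11.7-fold lower. Zfp541, a spermatocyte protein, was not analysed here, but of 3 partners tested Trerf1 was 5.68-fold higher in round spermatids, Hdac1 was 1.27-fold higher, and Dnttip1 did not pass.

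Other zinc finger families gave the following counts in the same comparison, to be read against 37.0% of all genes lower and 38.3% higher. Of 30 Zbtb genes, which pair fingers with a BTB domain, 17 were lower and 8 higher in round spermatids. Of 13 Zc3h genes, which bind RNA, 7 were lower and 1 was higher. Of 5 Zscan and Zkscan genes, 2 were lower and 3 higher.

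Zfp genes lie in clusters on several rat chromosomes, and the genes of this paragraph are named for their position. Among neighbouring protein coding genes in RefSeq's GRCr8 annotation, 13 adjacent pairs were both Zfp genes and both tested. On chromosome 8 the run Zfp26, Zfp426, Zfp266 and Zfp846 had log2 differences of -0.52, -2.54, -0.88 and -1.41, although the other probe of Zfp266 was higher in round spermatids, at 1.38. On chromosome 1 Zfp566, Zfp260 and Zfp382 were all lower, at -0.68, -2.42 and -2.37, and on chromosome 18 Zfp35 and Zfp24 were both lower, at -1.07 and -1.39. Neighbours also went opposite ways. Zfp61 was higher by 2.28 while its neighbour Zfp94 was at -0.84, Zfp329 was higher by 1.05 while Zfp110 was at -1.0, and Zfp777 was higher by 0.89 while Zfp746 was at -1.36.

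RefSeq promoters, 250 bases before to 50 bases after the start on GRCr8, were found for 132 of the 159 genes. They were richer in CpG than promoters at large, with a median of 17 CpG and 57.5% G or C, against 7 CpG and 51.7% over all 33469 promoters. The set of all promoters was not matched by gene type to the Zfp genes, which are all protein coding. The same holds for the motif shares below. The motifs searched on both strands were the CRE palindrome TGACGTCA, bound by CREM in spermatids, the MYB core CAACTG, bound by the pachytene activator MYBL1, the RFX core GTTGCC, and the NRF1 palindrome, which is GCGCA followed by its reverse complement. The MYB core was in 11 of 39 promoters of genes higher in round spermatids (28.2%) and in 5 of 62 promoters of genes lower there (8.06%), against 13.9% of all promoters. It was also in 4 of 10 promoters of Zfp genes not tested (40.0%) and 1 of 21 of those that did not pass (4.76%). Over all 132 Zfp promoters the share was 15.9%. The RFX core was in 6 of the 39 (15.4%) and 3 of the 62 (4.84%), against 12.2% of all promoters. The CRE was in 1 of the 39 (2.56%) and 3 of the 62 (4.84%), against 1.83% of all promoters. The NRF1 palindrome was in 1 of the 39 (2.56%) and 2 of the 62 (3.23%), against 0.852% of all promoters. A match is a description of these letters and not a bound site.

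Of the 20 widely different genes, 9 had a promoter with a CRE, MYB core or NRF1 match. The promoters of 7 are shown, with the match in capitals, and those of Zfp474, higher in round spermatids and with a MYB core, and Zfp426, lower there and with a CRE, are not. Each is written 5′ to 3′ on the gene's strand, with its start site after base 250. Those of the 4 genes higher in round spermatids are Zfp954 (chr1:75809151-75809450, plus strand), Zfp352 (chr5:110061792-110062091, plus strand) and Zfp867 (chr10:44754715-44755014, minus strand) with the MYB core, and Zfp458 (chr2:86401264-86401563, plus strand) with the CRE.
Zfp954: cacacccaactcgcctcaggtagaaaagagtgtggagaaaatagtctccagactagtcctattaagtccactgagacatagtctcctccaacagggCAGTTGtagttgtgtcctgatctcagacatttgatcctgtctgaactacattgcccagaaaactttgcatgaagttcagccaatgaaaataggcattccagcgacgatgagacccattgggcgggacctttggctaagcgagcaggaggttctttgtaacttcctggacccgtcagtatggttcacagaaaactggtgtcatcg
Zfp352: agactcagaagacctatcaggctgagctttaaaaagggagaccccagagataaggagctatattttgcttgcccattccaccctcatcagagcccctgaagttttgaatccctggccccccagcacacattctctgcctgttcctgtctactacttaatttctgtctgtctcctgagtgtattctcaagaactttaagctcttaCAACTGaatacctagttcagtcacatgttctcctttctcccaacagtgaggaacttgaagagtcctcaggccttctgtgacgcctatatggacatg
Zfp867: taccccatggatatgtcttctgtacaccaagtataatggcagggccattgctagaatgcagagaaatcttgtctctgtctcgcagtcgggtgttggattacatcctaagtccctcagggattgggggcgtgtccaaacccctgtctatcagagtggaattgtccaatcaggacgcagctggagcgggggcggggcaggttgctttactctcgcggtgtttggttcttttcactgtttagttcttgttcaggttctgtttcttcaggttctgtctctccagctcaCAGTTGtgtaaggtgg
Zfp458: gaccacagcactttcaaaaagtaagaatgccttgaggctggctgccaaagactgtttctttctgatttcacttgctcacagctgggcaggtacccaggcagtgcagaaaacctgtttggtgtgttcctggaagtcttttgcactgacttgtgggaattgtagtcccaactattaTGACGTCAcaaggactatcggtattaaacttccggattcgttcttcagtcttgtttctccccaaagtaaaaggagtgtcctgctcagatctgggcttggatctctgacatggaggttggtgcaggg

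Those of the 3 genes lower in round spermatids are Zfp472 (chr7:12724877-12725176, plus strand) and Zfp367 (chr17:970646-970945, plus strand) with the MYB core, and Zfp260 (chr1:94469611-94469910, plus strand) with the NRF1 palindrome.
Zfp472: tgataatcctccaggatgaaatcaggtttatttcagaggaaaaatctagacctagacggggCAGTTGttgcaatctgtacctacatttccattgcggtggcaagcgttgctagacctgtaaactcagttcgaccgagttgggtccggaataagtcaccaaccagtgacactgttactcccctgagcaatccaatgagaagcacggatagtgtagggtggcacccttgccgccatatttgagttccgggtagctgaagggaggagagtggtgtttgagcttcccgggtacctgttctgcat
Zfp367: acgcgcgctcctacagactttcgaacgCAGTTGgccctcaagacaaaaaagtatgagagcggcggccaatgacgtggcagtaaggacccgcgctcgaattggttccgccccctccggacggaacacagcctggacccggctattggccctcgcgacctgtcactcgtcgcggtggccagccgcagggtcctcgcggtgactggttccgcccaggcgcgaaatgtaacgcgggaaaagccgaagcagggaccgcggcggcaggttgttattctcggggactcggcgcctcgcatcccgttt
Zfp260: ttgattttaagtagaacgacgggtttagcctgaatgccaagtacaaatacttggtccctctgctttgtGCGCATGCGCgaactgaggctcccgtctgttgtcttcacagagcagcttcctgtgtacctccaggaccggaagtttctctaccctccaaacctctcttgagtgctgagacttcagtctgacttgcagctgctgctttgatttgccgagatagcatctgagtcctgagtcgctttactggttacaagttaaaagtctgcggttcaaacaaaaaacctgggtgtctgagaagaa

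The promoters of the 4 higher genes hold 7, 1, 8 and 4 CpG in the order shown, and those of the 3 lower genes hold 10, 37 and 10. Among the 5 MYB core matches shown, that of Zfp352 reads on the gene's strand and the other 4 on the opposite strand.

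For genes with several probes, the values above are those of the brighter probe, and the other probes did not always follow. The 33 genes gave 34 pairs of a brighter and another probe. In saline rats both probes passed in the same direction in 14 pairs and in opposite directions in 5. The brighter probe alone passed in 3 pairs, the other probe alone in 4 and neither in 1, and 7 pairs had a probe that was not tested.

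The widest disagreement was that of Zfp608, whose brighter probe was higher in round spermatids by 1.04 ± 0.11 on the log2 scale while the other stood at -3.61 ± 0.17. The other probe of Zfp608 had levels between -5.64 and -4.88 (median -5.35) in round spermatids of saline rats and between -1.93 and -1.49 (median -1.74) in pachytene spermatocytes of saline rats. Its brighter probe had levels between -0.98 and -0.36 (median -0.55) in round spermatids and of -1.57, -1.61, -1.78, -1.51 and -1.67 in pachytene spermatocytes. The groups did not overlap for either probe. In cyclophosphamide rats the probes were also opposed, at 1.07 ± 0.11 and -4.11 ± 0.17.

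Zfp280d was likewise higher by its brighter probe (log2 difference 1.73 ± 0.15) and lower by the other (-1.41 ± 0.33). Zfp46 was at -2.10 ± 0.10 by its brighter probe and 0.70 ± 0.12 by the other, Zfp266 at -0.88 ± 0.20 and 1.38 ± 0.21, and Zfp292 at -1.01 ± 0.15 and 0.66 ± 0.15. Zfp39 was lower by both probes, at -0.57 ± 0.19 and -3.02 ± 0.21. With the mean of all probes in place of the brighter one, Zfp608 was lower in round spermatids (log2 difference -1.28, limma adjusted p = 3.1e-10), and Zfp280d, Zfp266 and Zfp292 did not pass. The direction of Zfp608, Zfp280d, Zfp46, Zfp266 and Zfp292 therefore depends on the probe, and for Zfp39 only the size does.

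**Figure D3:**
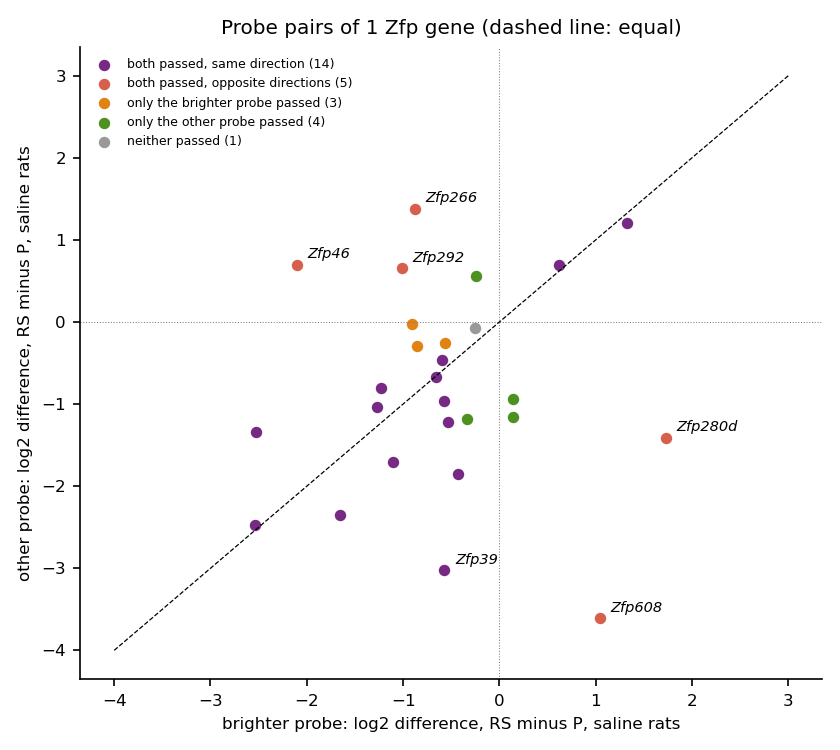
Log2 difference between round spermatids (RS) and pachytene spermatocytes (P) of saline rats by the brighter probe of a Zfp gene (x) and by another probe of the same gene (y), for pairs in which both probes were tested; each point is a pair, coloured by which probes passed. The 5 opposed pairs, among them Zfp608 and Zfp280d, have one difference above 0 and the other under 0.

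The second comparison asked whether cyclophosphamide changed these genes in round spermatids. No Zfp gene passed: of 137 tested with limma, 0 had an adjusted p under 0.05 (0.0% of all 18864 genes tested), and the smallest adjusted p was 1.0. At an unadjusted p under 0.05 there were 6 (4.38%), against 3.32% of all genes, and for no Zfp gene did the treated arrays lie wholly above (0.148% of all genes) or wholly below (0.0424% of all genes) the saline arrays. The differences ran from -0.53 to 0.42 on the log2 scale, with a median of -0.02, and for 133 of 137 genes the 95% interval stayed within 2-fold either way.

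The genes with the smallest unadjusted p in round spermatids were small in size. Zfp513 had levels between 0.05 and 0.49 (median 0.21) after cyclophosphamide and between -0.41 and 0.21 (median -0.04) after saline, a log2 difference of 0.30 ± 0.10. Zfp219, a partner of Sox9 in cartilage, had levels between -2.04 and -1.34 (median -1.87) after cyclophosphamide and between -2.59 and -2.03 (median -2.08) after saline, a log2 difference of 0.42 ± 0.16. Both pairs of groups overlapped. Zfp280d and Zfp455l1 were at 0.32 ± 0.15 and 0.37 ± 0.17, and on the other side Zfp46, Zfp131, Zfp655 and Zfp532 were at -0.21 ± 0.09, -0.23 ± 0.10, -0.30 ± 0.16 and -0.41 ± 0.21, each with a limma adjusted p of 1.0.

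The third comparison asked the same of pachytene spermatocytes. Of 144 Zfp genes tested with limma, 0 passed (0.0% of all 18470 genes tested), with a smallest adjusted p of 0.681, which was also the smallest over all genes. At an unadjusted p under 0.05 there were 9 (6.25%), against 7.29% of all genes. Of the 9, 8 were below 0, which is 5.56% of the Zfp genes tested, against 5.35% of all genes. No Zfp gene had treated arrays wholly above (0.417% of all genes) or wholly below (0.211% of all genes) the saline arrays. The median difference was 0.03 on the log2 scale, the range was -0.65 to 0.65, and the 95% interval stayed within 2-fold for 136 of 144 genes.

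Zfp36l1 had the smallest unadjusted p, with levels of -3.90, -3.65, -3.80, -4.04 and -3.98 in pachytene spermatocytes after cyclophosphamide, against -3.47, -3.44, -3.59, -3.65 and -3.42 after saline. Treated arrays were lower except that the highest treated array, at -3.65, met the lowest saline array. The log2 difference was -0.36 ± 0.10, with a 95% interval of -0.58 to -0.14 (limma unadjusted p = 0.00247, adjusted p = 0.681).

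Zfp385b had levels of -3.96, -3.91, -4.04, -4.12 and -4.28 after cyclophosphamide, against -3.45, -2.53, -3.21, -4.42 and -3.48 after saline. Here 1 saline array was below all treated arrays and the other 4 were above them (log2 difference -0.65 ± 0.25, limma adjusted p = 0.681). Zfp597 had levels of 1.87, 1.96, 1.77, 1.83 and 1.79 after cyclophosphamide, against 2.16, 2.57, 1.96, 2.14 and 1.95 after saline (-0.31 ± 0.11), and Zfp385d stood at -0.38 ± 0.15. The 8 genes below 0 at an unadjusted p under 0.05 were Zfp385b, Zfp475, Zfp516, Zfp385d, Zfp637, Zfp867, Zfp36l1 and Zfp597. All 8 were among those higher in round spermatids than in pachytene spermatocytes, a comparison that uses the same pachytene arrays. Of all genes tested between the cell types of saline rats, 38.3% were higher in round spermatids. The share among all genes below 0 at an unadjusted p under 0.05 was not counted, so the pattern may not be particular to Zfp genes.

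Round spermatid markers were also below 0 on these arrays, although none of the 14 passed (limma adjusted p of 0.681 or more). All 14 were below 0 in pachytene spermatocytes after cyclophosphamide, against 42.9% of all genes, with a median log2 difference of -0.45, and 7 had an unadjusted p under 0.05, against 7.29% of all genes. The log2 of their levels summed on the linear scale was 7.33 to 8.38 after cyclophosphamide and 7.44 to 8.75 after saline. The 9 macrophage markers tested were also all below 0 (median -0.22). Over the 10 on the array, the log2 of the sum was -0.78 to 0.43 after cyclophosphamide and -0.02 to 0.52 after saline. Of 6 smooth muscle markers 5 were below 0 (median -0.21), as were 5 of 10 Sertoli cell markers (median -0.01) and 4 of 7 Leydig cell markers (median -0.06). The part of all these markers in the values of the 8 genes was not tested.

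On the other side, Zfp111 had levels of 0.08, -0.84, -0.13, 0.07 and 0.17 after cyclophosphamide, against -1.74, -0.38, -0.27, -1.56 and 0.03 after saline, a log2 difference of 0.65 ± 0.31. The wide spread came from 2 saline arrays that were over 1 unit below the rest. Zfp57, Zfp282 and Zfp395 stood at 0.57 ± 0.31, 0.34 ± 0.17 and 0.29 ± 0.16, none of them past the threshold (limma adjusted p of 0.698, 0.681 and 0.694).

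**Figure D4:**
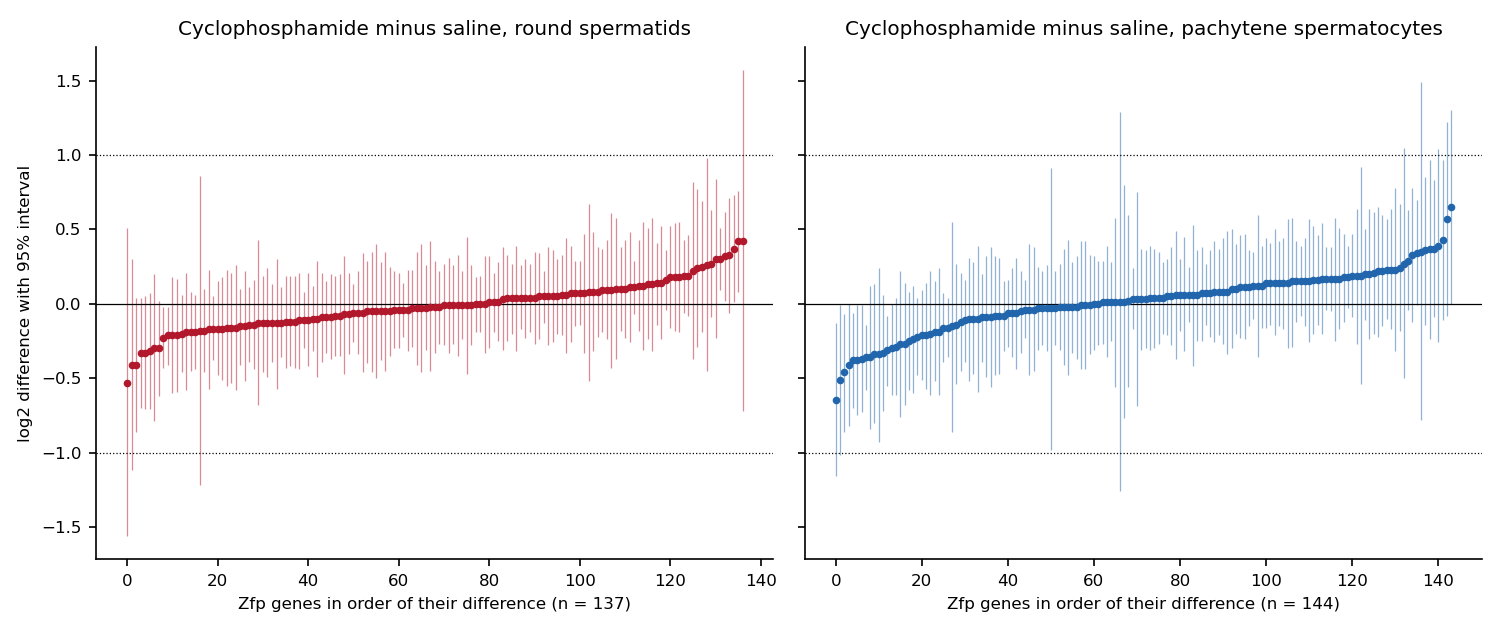
Log2 difference between cyclophosphamide and saline (y) for each Zfp gene tested, in order of size (x), in round spermatids (left, n = 137) and pachytene spermatocytes (right, n = 144). Points are limma estimates, vertical lines their 95% intervals, and dotted lines mark 2-fold either way; all estimates lie between -0.65 and 0.65.

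The last comparison tested whether the drug difference in round spermatids was unlike that in pachytene spermatocytes. None of 148 Zfp genes passed this interaction (limma; 0.0% of all 19664 genes tested), with a smallest adjusted p of 0.634. At an unadjusted p under 0.05 there were 10 (6.76%), against 7.65% of all genes. Zfp36l1 had the smallest unadjusted p, 0.00148, from a log2 difference of 0.16 ± 0.10 in round spermatids against -0.36 ± 0.10 in pachytene spermatocytes (interaction 0.52 ± 0.14, 95% interval 0.22 to 0.81). Zfp516, known from brown fat cells, was at 0.27 ± 0.17 in round spermatids and -0.46 ± 0.19 in pachytene spermatocytes (interaction 0.73 ± 0.26). Zfp46 was at -0.21 ± 0.09 in round spermatids and 0.17 ± 0.10 in pachytene spermatocytes (interaction -0.38 ± 0.14), by the brighter of its opposed probes. The 95% interval of the interaction stayed within 2-fold for 120 of 148 genes.

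**Figure D5:**
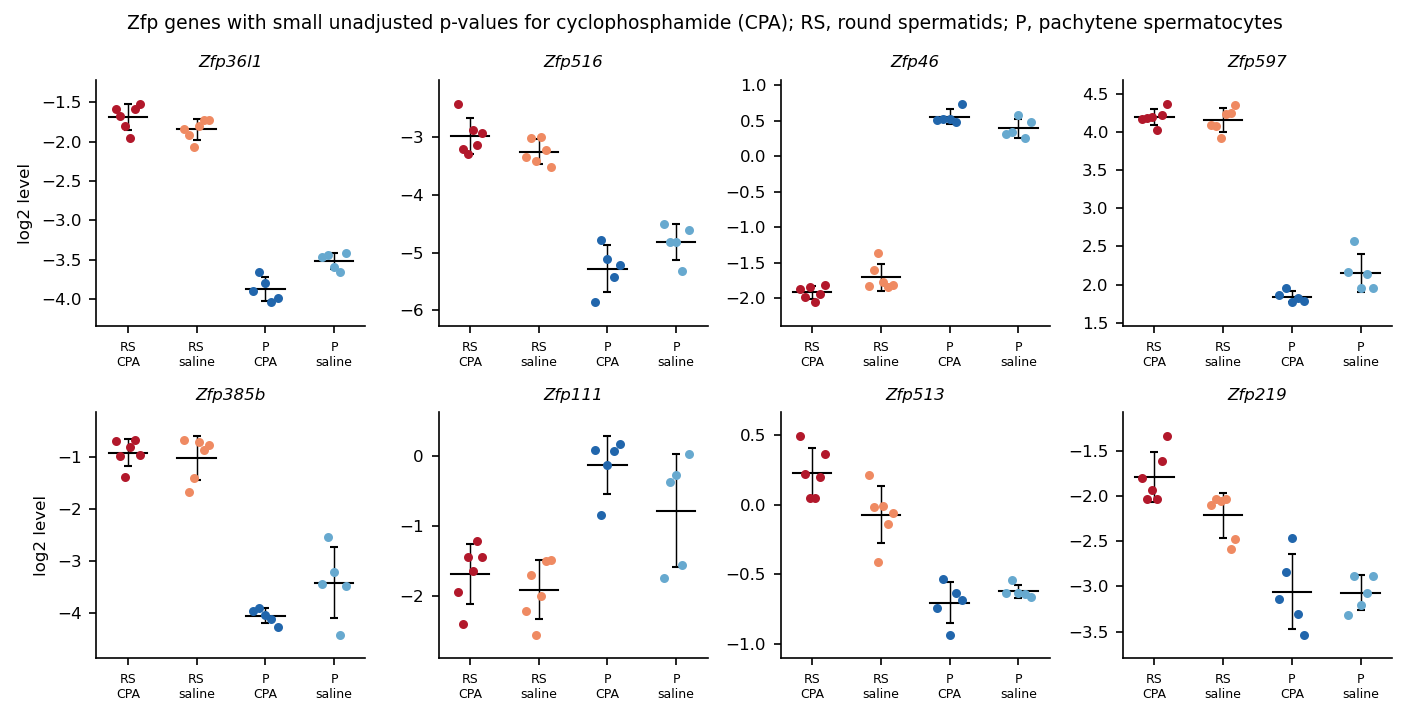
Log2 level (y; 0 is the array's 75th percentile) of 8 Zfp genes with small unadjusted p-values for a drug difference, by group (x): round spermatids (RS) and pachytene spermatocytes (P) after cyclophosphamide (CPA) or saline. Points are arrays, horizontal lines are means and bars are SD; each panel has its own axis. Treated and saline arrays of the same cell type overlap or touch in every panel, and none of the 8 genes passed.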

How the data were processed

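The authors deposited 1 scanner file per array, in which every spot has an intensity, its processed signal, that, per the file headers, Feature Extraction 10.7.3.1 had background-subtracted. The submitters' processing notes name version 11.5.1.1. The deposited table of log2 values covers 30507 probes. Its columns, with medians of -0.00975 to 0.00702, correlated at 0.999 to 1 with the own array's signals after quantile normalization and centring within each cell type. That scale and centring are inferred from the match, no label states them, and the table was used only as a second source for the drug comparisons.

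Of 62976 spots, 58717 were not controls, for 30367 probes. Spots of 1 probe were averaged, and the log2 signal was scaled by the array's 75th percentile. Accessions gave 17998 probes a symbol from RefSeq's GRCr8 gene table. A probe counted as well above background when more than 0.5 of its spots were. Differences were fitted over all genes with limma 3.58.1 (lmFit and eBayes) in R 4.3.3, as 4 group means on 22 arrays, and p-values were adjusted by Benjamini-Hochberg over all genes tested. The replicate block used duplicateCorrelation with statmod 1.5.0. Values after ± are SE for differences and SD for levels. The fits were tested on simulated data. Tables and drawings used Python 3.11.15 with matplotlib 3.10.9, pandas 2.3.3 and numpy 2.4.6. The number of arrays limits the precision.

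The text names the 10 genes with the widest difference each way that passed in both treatments without overlap in saline rats, the 4 with the smallest unadjusted p each way per treatment comparison and 3 for the interaction, those with a listed role, on chromosome X, with an outlying array or with the widest disagreement between probes, and the 2 widest partners each way that passed. The members, this rule and the lists were chosen with earlier results of these data known. Normexp on the median signal was run in place of the planned mean signal, which was not used here.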

Additional observations from a re-analysis of the deposited data

Results flagged for a closer look

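Outlying arrays were sought with Dixon's gap, which sets the distance of the highest or lowest array to its neighbour against the range of the group, and values are log2 levels. Only groups in which every array had the gene well above background were examined. This left out Zfp583 in round spermatids after saline, at -2.20 in rat 16 and between -6.55 and -5.37 in the others. In the 531 groups examined, 29 had an outlying array (5.46%), near the 5% that chance gives. Of these, 7 were on round spermatids of cyclophosphamide rat 27. There Zfp217 (2.60), Zfp455 (-2.12) and Zfp455l1 (0.23) were high, and Zfp444 (-3.96), Zfp605l1 (-1.86), Zfp707 (1.51) and Zfp865 (0.06) were low.

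On other round spermatid arrays after cyclophosphamide, Zfp329 was high at 0.65 in rat 25, Zfp579 was high at -3.21 in rat 15, and Zfp384 was low at -2.62 in rat 16. In rat 14 Zfp954 was high at -1.92 and Zfp352 low at -3.64. On round spermatid arrays after saline, rat 16 was high for Zfp319 (-1.14, against -3.98 to -3.47 in the other 5), Zfp347 (-1.42) and Zfp382 (-3.66), and rat 17 was low for Zfp385a (3.40) and Zfp385d (0.94). In rat 29 Zfp521 was high at 0.71 and Zfp831 low at -3.66, in rat 15 Zfp954 was high at -2.28, and in rat 28 Zfp786 was low at -4.10.

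On pachytene arrays after cyclophosphamide, Zfp46 was high at 0.74 in rat 29, Zfp637 was high at -0.50 and Zfp367 low at -1.20 in rat 15, Zfp593 was low at -1.03 in rat 7, and Zfp641 was low at -2.90 on 1 of the 2 arrays numbered 16. On pachytene arrays after saline, Zfp428 and Zfp800 were high at 1.85 and -1.75 in rat 26, and Zfp513 was high at -0.54 in rat 16.

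For 5 genes every treated array lay on one side of the saline mean in round spermatids and on the other side in pachytene spermatocytes. The share of all genes that meet this rule was not counted, so whether 5 is unusual is not known. The log2 interaction was -0.35 for Zfp131, 0.57 for Zfp280d, -0.38 for Zfp46, -0.25 for Zfp52 and -0.73 for Zfp566. None of the 5 interactions passed (limma adjusted p of 0.634, and of 0.705 for Zfp52).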

How the results depend on the processing

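Every count of Zfp genes past the threshold stayed within 1.5 times its value under all alternatives run. Leaving out each array in turn gave 44 to 47 higher and 73 to 77 lower in saline rats, 45 to 48 higher and 77 to 82 lower in cyclophosphamide rats, and 0 in each treatment comparison. Quantile normalization gave 44 higher and 81 lower in saline rats, slide as a fixed block 46 and 66, and the arrays of slides 1 and 2 alone, chosen after seeing the data, 43 and 67. With the 2 cyclophosphamide pachytene arrays numbered 16 averaged as 1 sample, 46 were higher and 77 lower in cyclophosphamide rats, and 0 passed in each treatment comparison. Of 121 genes that passed in saline rats, all kept their sign under every alternative run except Zfp266 and Zfp608 with the mean of all probes and Zfp395 within slide 1.

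Between cell types, the deviations of arrays with equal rat numbers correlated at -0.0961 to 0.379. For saline rat number 28 the value was 0.379, against at most 0.119 for other numbers. A cyclophosphamide pachytene array numbered 16 reached 0.163, against at most 0.132 for other numbers. The remaining pachytene arrays with an equal number correlated more with another number than with their own. These values do not settle whether equal numbers name the same animal. With the rat number as a replicate block, 46 genes were higher and 76 lower in saline rats, 47 and 80 in cyclophosphamide rats, and 0 in each treatment comparison. Within a cell type, the block for the treatment comparisons joined treated and saline arrays of equal number, although these are different rats.

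The values that changed sign belong mostly to differences that did not pass, and the cause was not tested. In saline rats between cell types, Zfp592 was at -0.22 with quantile normalization, -0.01 with a slide block, -0.21 on slide 1 alone and -0.09 to 0.17 without 1 array each. Zfp703 was at -0.09 with quantile normalization, -0.05 with normexp, -0.66 with the mean of probes and -0.08 to 0.31 without 1 array each. Zfp275 was at -0.02 with a slide block and -0.01 on slide 2 alone. Zfp319 was at -0.21 to 0.42 without 1 array each, below 0 only when saline round spermatid rat 16 was left out, and at -0.34 within slide 1, Zfp445 was at 0.18 within slide 1 and Zfp707 at 0.05 within slide 2. With the mean of probes Zfp608 was at -1.28, Zfp266 at 0.25 and Zfp865 at 0.16. For the drug in pachytene spermatocytes, slides 1 and 2 hold 1 array per treatment each, so values within either slide set 1 array against 1. There Zfp282 was at -0.30 within slide 1, -0.05 within slide 2 and -0.18 on both, Zfp111 at -0.06 within slide 3, Zfp395 at -0.09 within slide 2 and Zfp57 at -0.13 within slide 1. Normexp on the mean signal was not run.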
